A study of Mus musculus with 8 samples.

Results

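The let-7 match probes are the array oligonucleotides that carry, as written in the scanner files, the 7-base DNA complement of the let-7 seed, CTACCTC. They were chosen by sequence alone. Of 42006 probes of 60 bases on the array, 153 (0.364%) held the motif, each of them at 1 place, and 115 of these were well above background on both arrays of at least 1 group and entered the tests. The same filter left 29199 probes in all, of which 29084 held no match. Of the 38 match probes that did not pass, 26 were well above background on no array and the other 12 on at most 4 of the 8 arrays. At the edge of the filter, 5 of the probes that passed were well above background on only 2 or 3 arrays.

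MicroRNAs of the let-7 family share their seed, the stretch near the 5′ end of the mature microRNA that pairs with the messenger RNA and directs its silencing. Dicer is the enzyme that cuts microRNA precursors to their mature form, so a cell without it makes few mature microRNAs of most families. The let-7 family is known for its rise as embryonic cells differentiate, and for holding down messengers of growth and of the embryonic state.

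The arrays measured total RNA of footpad skin from C57BL6 mouse embryos, either Dicer cKO (a conditional knockout, KO below) or wild type (WT), taken at the embryonic stage E16.5 or a day later at E17.5. There were 4 groups with 2 arrays apiece, described in the labels as biological replicates, and the RNA on each came from the pooled footpads of 3 to 5 embryos. The Cre driver of the knockout and the cells it acted in are not given in the sources used here. Footpad RNA was labelled with Cy3 and hybridised against Cy5-labelled universal mouse reference RNA on every array, with no dye swap. A level below is therefore a log2 ratio of footpad to reference, and a difference is a difference of such levels. The 4 arrays of a stage lay on 1 slide, so the genotypes were compared within a slide, and stage and slide cannot be told apart. Between 62.0% and 72.0% of the probes were well above background on an array, and the 2 arrays of a group correlated at Pearson r = 0.995 to 0.996 over the tested probes. The files name probes by number and sequence only. No gene is therefore named here, neither Dicer1 nor markers of skin cell types could be checked, and the probes' exon, intron or UTR position was not annotated. In whole tissue, fewer cells of a type and less RNA in each cell cannot be told apart.

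The mature family members that define the motif are printed from RefSeq (GRCm38.p6), 5′ to 3′, with the seed, bases 2 to 8, in capitals. Mature let-7a of the locus Mirlet7a-1 lies on the minus strand at chr13:48538239-48538260.
let-7a: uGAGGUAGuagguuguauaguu
let-7b: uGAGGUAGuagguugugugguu
let-7c: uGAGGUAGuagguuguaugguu
let-7d: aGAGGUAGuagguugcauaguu
let-7e: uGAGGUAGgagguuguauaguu
let-7f: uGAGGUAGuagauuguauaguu
let-7g: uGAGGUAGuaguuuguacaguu
let-7i: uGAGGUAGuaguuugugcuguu
miR-98: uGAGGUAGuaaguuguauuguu
In all, 11 mature names from 13 loci in the RefSeq table shared this seed; let-7k and miR-1961, which are shorter, are not printed. Past the seed the members differ, counted from base 1 at the 5′ end with the let-7a base first. Nearest the seed are U9G in let-7e, G11A in miR-98, G12A in let-7f and G12U in let-7g and let-7i. Further on are A17G and A19G in let-7b, A19G in let-7c, U16C in let-7d and U18C in let-7g. There are also A17G, U18C and A19U in let-7i, and A19U in miR-98. Before the seed, let-7d differs at base 1 (U1A). A probe with CTACCTC can therefore match any of them, and only a longer match separates them.

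The following windows of 30 bases hold the match in probes described below, 5′ to 3′ as in the files, with the seed match in capitals. Each measured value is that of the whole probe of 60 bases. The first 5 were higher in the knockout at both stages.
Z00018218-1: tcaaaacacactaCTACCTCttaagtccca
Z00056156-1: cCTACCTCagggttgctgcaaggatcaaac
Z00034228-1: gtttatatttcaataaagctCTACCTCttc
Z00024450-1: cCTACCTCcagagaataagtttgtagcagc
Z00062806-1: gaaatacaagtctCTACCTCagggggtggg
The next 7 were higher at 1 stage.
Z00050677-1: ggttccctaacccCTACCTCtgacagtctc
Z00016535-1: ggaaataacactaCTACCTCcaacgggtcc
Z00025862-1: gaatgggcgcttcCTACCTCccagggctct
Z00066374-1: ccactcctcctctcacagCTACCTCgctgc
Z00006834-1: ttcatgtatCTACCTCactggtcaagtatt
Z00004801-1: tggttttaatCTACCTCttagcaaaacaat
Z00074086-1: gggccgtcgattgCTACCTCttccctgatg
These 7 were lower in at least 1 of the knockout comparisons.
Z00075696-1: tctagcctacacaCTACCTCagcaggattc
Z00073705-1: gtacatctgctcatCTACCTCaccatgtat
Z00074215-1: ttcctctgtgcttCTACCTCttctcacgtg
Z00044665-1: acaaaacaagtgcCTACCTCcccctgaagc
Z00054956-1: ggcgtatggccgaCTACCTCcgacagtacc
Z00056100-1: actacggtgggggCTACCTCgacagtcacc
Z00007941-1: ttatgtggtccttCTACCTCttgctgtgaa
The last 2, with long matches to let-7a, passed the test in no knockout comparison.
Z00023182-1: gagaactgggtcaataaagtgtaCTACCTC
Z00028542-1: gcattccattttactggtaCTACCTCtgaa

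Among the 115 tested probes the match was followed by A, which makes the 8-base form of a seed site, in 41 (35.7%), by C in 38, by T in 24 and by G in 10, and it ended the probe in 2. The match began at base 2 to 54 of the probe, with a median of 24. Unbroken complement to let-7a stopped at the seed in 96 probes and reached base 9 or further in 19. The longest runs, 10 bases to let-7a base 11, were in Z00018218-1 and Z00016535-1, and the runs of Z00023182-1 and Z00028542-1 reached base 10. The GC content of the match probes ran from 30% to 68.3% with a median of 45%, the same median as that of the other tested probes. The polyadenylation signal AATAAA stood in 2911 of all probes and its complement TTTATT in 1413, and in 14 and 2 of the tested match probes, so the sense direction was the more common in the probes as written. The strand of a single probe was not checked. Matches of other microRNA seeds were rare among them: 1 tested probe, Z00050537-1, also held the miR-205 match, and none held that of miR-203, miR-17, miR-19, miR-200a, miR-200b/c or miR-30. Some probes share sequence: Z00060425-1 and Z00025542-1 had 46 bases in common, and Z00031903-1 and Z00037336-1 had 22. Z00038903-1 and Z00059142-1 had 45, and neither of this last pair passed the filter. Whether such probes share a target was not checked.

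The match probes covered a wide span of levels, from a mean log2 ratio to the reference of -3.77 to 4.18 over the 8 arrays. Of the 115, 94 were well above background on all 8 arrays, and none was saturated in Cy3. Those well above background on both arrays numbered 110 in KO and 109 in WT at E16.5, and 95 in KO and 107 in WT at E17.5. Of all probes, 69.3% and 69.3% were so on the single KO arrays at E16.5, and 67.7% and 72.0% on the WT arrays. At E17.5 these shares were 62.0% and 65.1% on KO and 69.7% and 66.5% on WT. No match probe was well above background on both arrays of 1 group and on no array of the others. The 12 that were not well above background on either array of some group included no probe called in a knockout comparison. The median level of the match probes less that of other probes of the same GC content was -0.11 and -0.08 on the KO arrays at E16.5 and -0.06 and -0.10 on the WT arrays. At E17.5 it was -0.06 and -0.03 on KO and -0.07 and -0.09 on WT. It was thus below 0 on every array, and the groups overlapped at E16.5 while both KO arrays were the higher at E17.5. The group means ± SD (n = 2 each) were -0.09 ± 0.02 in KO and -0.08 ± 0.03 in WT at E16.5, and -0.04 ± 0.02 in KO and -0.08 ± 0.01 in WT at E17.5.

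At E16.5, 7 of the 115 match probes were higher in KO than in WT and 1 was lower (limma, Benjamini-Hochberg adjusted p under 0.05 over all tested probes). Over all tested probes 2.95% were called, 1.09% higher and 1.86% lower. Of the match probes, 6.09% were higher and 0.870% lower, against 0.896% and 1.88% of other probes of the same GC content. The 7 higher probes had a median log2 difference of 0.41. The median over all 115 was 0.03, against 0.01 over the others, and less the GC-matched others it was 0.02, with a range of -0.0039 to 0.041 when single arrays were left out. At an unadjusted p under 0.05, 20 were higher and 2 lower, 17.4% and 1.74%, against 10.8% and 9.28% of the other probes.

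The count at E16.5 depended on the processing. It was 0 when spots of uneven signal were kept in the background fit, where none of all probes was called, and 2 when arrays were centred on the median in place of loess, both higher, where 0.172% of all probes were higher and 2.14% lower. It fell to 5 without KO E16.5 replicate 1 and 3 without its replicate 2, where 1.29% and 0.491% of all probes were called. It was 2 without WT E16.5 replicate 1 or replicate 2, where 1.16% and 0.492% of all probes were called, and 5 without any 1 of the E17.5 arrays, where 1.89% to 2.1% were. All of these remaining calls were higher in KO.

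At E17.5, 21 of the 115 match probes were higher in KO and 5 were lower by the same limma test. The share called over all tested probes was 14.8%, with 6.97% higher and 7.83% lower. Of the match probes 18.3% were higher and 4.35% lower, against 6.30% and 7.91% of the GC-matched others. The 21 higher probes had a median log2 difference of 0.28 and the 5 lower ones of -0.24. The median over all 115 was 0.01, and less the GC-matched others it was 0.02, with a range of 0.017 to 0.026 when single arrays were left out. Over all of them, called or not, 54.8% of the match probes lay above 0, against 50.3% of the GC-matched others. At an unadjusted p under 0.05, 26 were higher and 13 lower, 22.6% and 11.3%, against 15.1% and 15.2% of the other probes.

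The log2 differences at E17.5 ran from -0.81 to 0.94 over the 115 match probes and from -3.98 to 2.32 over the 28905 other probes. No match probe was called with uneven spots kept, where 0.116% of all probes were, and median centring left 4 higher and 1 lower, where 0.865% of all probes were higher and 4.96% lower. With an E17.5 array left out it dropped to 9 (KO replicate 1), 11 (KO replicate 2), 7 (WT replicate 1) or 12 (WT replicate 2), with 8, 8, 6 and 10 of these higher. The share of all probes called dropped as well, to 6.28%, 6.05%, 5.03% and 10.2% in the same order.

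Over both stages, with stage as a term, 18 match probes were higher in KO and 1 was lower (15.7% and 0.870% of the match probes). Over all tested probes 15.7% were called, 7.79% higher and 7.90% lower, and among GC-matched others 6.71% were higher and 8.28% lower. The 18 higher probes had a median log2 difference of 0.23, and the median over all 115 less the GC-matched others was 0.02. At an unadjusted p under 0.05, 28 were higher and 8 lower, 24.3% and 6.96%, against 16.9% and 14.7% of the other probes. Median centring turned the split of the calls: 3 were higher and 5 lower. Over all probes 0.855% were then higher and 12.4% lower, and the median of all probes moved from 0.01 to -0.06. With uneven spots kept, 1 match probe was called, higher in KO, where 0.144% of all probes were called. Among single arrays left out, the count fell most without KO E17.5 replicate 1, to 11, and to 12 without KO E17.5 replicate 2 or WT E16.5 replicate 2. In these fits 10.5%, 7.86% and 9.23% of all probes were called.

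The order of the single arrays was counted without a test. Of the 113 match probes measured on all 8 arrays, both KO arrays lay above both WT arrays in 39 at E16.5 and in 40 at E17.5, and below them in 17 and 28. Over all probes measured on 8 arrays these shares were 29.3% and 30% above and 23.1% and 28.3% below, against 34.5% and 35.4% above and 15.0% and 24.8% below in the match probes. At both stages together 25 match probes lay above and 6 below, 22.1% and 5.31%, against 15.0% and 13.2% of all probes. The stages share no array, but their calls come from 1 fit with a shared estimate of the spread. Of the 7 probes called higher at E16.5, 5 were among the 21 called higher at E17.5. Of those 21, 16 had a difference above 0 at E16.5. Over all tested probes, 72.1% of those called higher at E16.5 were also called higher at E17.5, against 71.4% of the match probes. Of those called higher at E17.5, 11.2% were also called higher at E16.5 and 86.9% were above 0 there, against 23.8% and 76.2% of the match probes. In all, 27 match probes were called higher and 7 lower in at least 1 of the 3 knockout comparisons, and 81 were called in none. As shares these were 23.5%, 6.09% and 70.4%, against 10.4%, 10.5% and 79.1% of all tested probes.

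The calls were also counted by the form of the site. At E16.5, 2 of the 41 probes with A after the match and 5 of the 74 without it were higher. At E17.5 these counts were 9 and 12, and over both stages 8 and 10. Lower were 0 and 1 at E16.5, 2 and 3 at E17.5, and 0 and 1 over both stages. Over all tested probes 1.09%, 6.97% and 7.79% were higher and 1.86%, 7.83% and 7.9% lower, in the same order. By the base after the match, 9 of 41 probes with A were higher at E17.5, 3 of 38 with C, 3 of 10 with G and 6 of 24 with T. Lower in these were 2, 2, 0 and 1. Probes whose complement to let-7a reached past the seed were higher in 4 of 19 at E17.5 and those that stopped at the seed in 17 of 96. Lower at E17.5 were 2 of the 19 and 3 of the 96. Of the 40 match probes with under 45% GC, 9 were higher and none lower at E17.5, and of the 75 others 12 were higher and 5 lower. The shares of non-match probes called in each of these GC ranges were not counted. The differences between these classes were not tested.

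Z00018218-1, with a complement of 10 bases to let-7a, had the largest difference at E16.5 and over both stages among the match probes. Its log2 ratio to the reference was -1.52 and -1.34 in KO E16.5, -2.09 and -2.09 in WT E16.5, -1.98 and -2.05 in KO E17.5, and -2.71 and -2.80 in WT E17.5. Both KO arrays were above both WT arrays at each stage. The log2 difference was 0.66 ± 0.07 (SE) at E16.5, 1.58-fold (limma adjusted p = 0.00384). It was 0.74 ± 0.07 at E17.5, 1.67-fold (limma adjusted p = 0.000503), and 0.70 ± 0.05 over both stages (limma adjusted p = 0.0001). The call held at both stages without any 1 array, but no call of this kind was left at E16.5 or E17.5 with uneven spots kept.

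Z00056156-1 carries an 8-base site at its 5′ end. Its levels were -0.35 and -0.14 in KO E16.5, -0.62 and -0.75 in WT E16.5, -0.80 and -0.82 in KO E17.5, and -1.45 and -1.35 in WT E17.5. KO was above WT on all arrays of each stage, by 0.44 ± 0.08 at E16.5 (limma adjusted p = 0.0283) and 0.59 ± 0.08, 1.51-fold, at E17.5 (limma adjusted p = 0.0027). The E16.5 call was lost without KO E16.5 replicate 2 or either WT E16.5 array (limma adjusted p = 0.0529 to 0.184) and under median centring (0.141), and the E17.5 call held without any 1 array.

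Z00034228-1, whose window also holds the polyadenylation signal AATAAA 5′ of the match, had levels of -1.04 and -1.0 in KO E16.5 and -1.54 and -1.61 in WT E16.5. At E17.5 the levels were -1.16 and -1.09 in KO and -1.53 and -1.48 in WT. The log2 difference was 0.55 ± 0.06 at E16.5 (limma adjusted p = 0.00295) and 0.38 ± 0.06 at E17.5 (limma adjusted p = 0.00374). The groups did not overlap, and the E16.5 call held without any 1 array.

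The remaining 2 probes called higher at both stages differed less. Z00024450-1 was higher by 0.31 at E16.5 and 0.26 at E17.5 (limma adjusted p = 0.0445 and 0.0335), from levels between -0.91 and -0.70 in KO and between -1.18 and -0.97 in WT. Z00062806-1, an 8-base site named after its values were seen, was higher by 0.26 and 0.24 (limma adjusted p = 0.0426 and 0.0193). Its levels lay between -0.62 and -0.53 in KO and between -0.87 and -0.81 in WT, close together within each genotype at both stages. The E16.5 calls of Z00024450-1 and Z00062806-1 were both lost under median centring, with an offset of 10 and on the arrays of that stage alone. Each was also lost without most of the single arrays.

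Z00050677-1 had the largest difference of the match probes at E17.5. Its levels were 2.42 and 2.28 in KO E17.5 and 1.31 and 1.51 in WT E17.5, while at E16.5 they were 1.45 and 1.82 in KO and 1.99 and 1.55 in WT. The groups were apart at E17.5 and overlapped at E16.5. The log2 difference was 0.94 ± 0.16 at E17.5, 1.92-fold (limma adjusted p = 0.00668), and -0.13 ± 0.16 at E16.5 (limma adjusted p = 0.684). Without WT E17.5 replicate 1 the E17.5 value was 0.84 and its call was lost (limma adjusted p = 0.059). With uneven spots kept the E17.5 value was 0.31 (limma adjusted p = 0.678). The change between the stages, 1.08 ± 0.22, did not pass the test (limma adjusted p = 0.111), and without WT E16.5 replicate 2 it did (1.30, limma adjusted p = 0.0465).

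Z00016535-1, the other probe with a complement of 10 bases, was high at E16.5 and low at E17.5 in both genotypes. Its levels were 2.59 and 2.64 in KO E16.5, 2.72 and 2.64 in WT E16.5, 0.81 and 1.21 in KO E17.5, and 0.32 and 0.26 in WT E17.5. It fell by 2.39 on the log2 scale, 5.23-fold, from E16.5 to E17.5 in WT (limma adjusted p = 3.92e-06) and by 1.60, 3.04-fold, in KO (limma adjusted p = 6.68e-05). KO was above WT by 0.72 ± 0.11 at E17.5 (limma adjusted p = 0.00455), and at E16.5 the difference was -0.06 ± 0.11 (limma adjusted p = 0.802). The difference of these differences, 0.78 ± 0.16, missed the threshold (limma adjusted p = 0.0996). It passed without KO E17.5 replicate 1 (limma adjusted p = 0.00798), the KO E17.5 array with the lower level.

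Other probes were called at 1 stage. Z00004801-1 was higher by 0.41 at E16.5 (limma adjusted p = 0.0245), with 0.20 at E17.5 (limma adjusted p = 0.0969), and Z00074086-1 by 0.39 at E16.5 (limma adjusted p = 0.0185), with 0.10 at E17.5 (limma adjusted p = 0.327). Each of these E16.5 calls was lost without 3 of the 8 arrays: Z00004801-1 without KO E16.5 replicate 2 or either WT E16.5 array (0.143, 0.108 and 0.111), and Z00074086-1 without KO E16.5 replicate 1 or either WT E16.5 array (0.0677, 0.0879 and 0.0974). Under median centring they were at 0.26 and 0.24 (limma adjusted p = 0.269 and 0.278). Z00025862-1, the named probe with the highest levels relative to the reference, 4.48 and 4.32 in KO E17.5 and 3.83 and 4.09 in WT E17.5, was higher by 0.44 at E17.5 (limma adjusted p = 0.0277). The largest of its limma adjusted p values, 0.162, came without WT E17.5 replicate 1, and it was also over the threshold without KO E17.5 replicate 1 (0.137) or replicate 2 (0.0551). On the Cy3 signal alone, without the reference, the difference of Z00025862-1 was 0.09 (limma adjusted p = 0.466).

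Z00066374-1 and Z00006834-1 were level between genotypes at E16.5 and apart at E17.5. Z00066374-1 had levels of -0.69 and -0.72 in KO and -0.72 and -0.76 in WT at E16.5, and of -0.38 and -0.42 in KO and -0.73 and -0.72 in WT at E17.5. The difference at E17.5 was 0.33 ± 0.05 (limma adjusted p = 0.00445), with 0.04 at E16.5 (limma adjusted p = 0.703). Z00006834-1, an 8-base site, was higher by 0.29 ± 0.06 at E17.5 (limma adjusted p = 0.0104), with 0.02 at E16.5 (limma adjusted p = 0.863). The change of the difference between stages passed in neither (limma adjusted p = 0.186 and 0.248).

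The lower probes were fewer and, but for 1, had log2 differences of -0.26 to -0.14 in the comparisons that called them. Z00075696-1, an 8-base site whose complement reaches let-7a base 9, had levels of -3.13 and -3.08 in KO E16.5, -3.12 and -3.33 in WT E16.5, -2.67 and -2.77 in KO E17.5, and -1.88 and -1.95 in WT E17.5. It rose from E16.5 to E17.5 by 1.32 in WT, 2.49-fold (limma adjusted p = 1.32e-05), and by 0.38 in KO, 1.30-fold (limma adjusted p = 0.00693). KO was thus below WT at E17.5 by a log2 difference of -0.81 ± 0.08, 1.75-fold (limma adjusted p = 0.000501), and at E16.5 the difference was 0.12 ± 0.08 (limma adjusted p = 0.399). The E17.5 call held without any 1 array, but with uneven spots kept the difference was 0.0059 (limma adjusted p = 0.995), and with Agilent's processed intensities it was -1.68 (limma adjusted p = 0.0107).

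The change in its difference between stages, -0.93 ± 0.11, made Z00075696-1 the 1 match probe called in that test (limma adjusted p = 0.0138). Over all tested probes 0.308% were called there, 0.114% higher and 0.194% lower. Leaving out 1 of the KO arrays at E16.5, or 1 of the WT arrays at E17.5, ended this call (limma adjusted p = 0.0569 to 0.102), with values of -0.97 to -0.90. With uneven spots kept the value was -0.026 (limma adjusted p = 0.988), and with Agilent's processed intensities the value of -1.81 missed the threshold (limma adjusted p = 0.2).

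The other 4 probes called lower at E17.5 had log2 differences of -0.25 (Z00073705-1), -0.24 (Z00074215-1), -0.22 (Z00044665-1) and -0.22 (Z00054956-1), with limma adjusted p values of 0.0289, 0.0184, 0.0207 and 0.0454. Their levels were near those of the reference, between -0.28 and 0.26 on all 8 arrays. Each call was lost when certain E17.5 arrays were left out: Z00073705-1 and Z00074215-1 without KO replicate 1 or either WT array, Z00044665-1 without any 1 of the 4, and Z00054956-1 without any 1 of the 4 except WT replicate 2. Z00054956-1 also lost it without any 1 of the E16.5 arrays (limma adjusted p = 0.0619 to 0.0643). The sizes moved with the scale: with processed intensities Z00073705-1, Z00044665-1 and Z00054956-1 were at -0.66, -0.48 and -0.53, of which only Z00044665-1 passed (limma adjusted p = 0.0677, 0.0258 and 0.0893), and under median centring Z00073705-1 and Z00054956-1 were at -0.14 and -0.10 (limma adjusted p = 0.504 and 0.68). At E16.5 the lower probe was Z00056100-1, with levels of -1.26 and -1.19 in KO and -0.96 and -0.96 in WT and a difference of -0.26 (limma adjusted p = 0.0383). That call was lost without any 1 of the 8 arrays (limma adjusted p = 0.0574 to 0.21). Over both stages it was Z00007941-1, at -0.14 (limma adjusted p = 0.03), which 6 of the 8 left-out arrays ended, all but KO E16.5 replicate 2 and WT E16.5 replicate 1 (limma adjusted p = 0.07 to 0.0924).

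The probes with long matches were divided. Of those described here, Z00018218-1 and Z00016535-1 were higher in KO at E17.5. Z00023182-1 and Z00028542-1 had differences of 0.03 and 0.10 at E17.5 (limma adjusted p = 0.763 and 0.333). Z00050537-1, with both a let-7 and a miR-205 match, differed by 0.10 at E16.5 (limma adjusted p = 0.432) and by -0.09 a day later (limma adjusted p = 0.366).

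From E16.5 to E17.5 the match probes changed about as often in each direction. In WT 12 were higher and 13 lower at E17.5, against 24.7% of all tested probes called, 13% higher and 11.7% lower, and in KO 11 were higher and 15 lower, against 28.1%, 13.4% higher and 14.8% lower. The match probes higher and lower were 10.4% and 11.3% in WT and 9.57% and 13% in KO. Median centring gave 1 higher and 11 lower in WT and 3 higher and 7 lower in KO, where over all probes 4.88% and 8.09%, and 4.54% and 7.67%, were called. In WT the count was 15 without WT E16.5 replicate 1 and 14 without WT E17.5 replicate 2, and in KO it was 13, 11 and 16 without KO E16.5 replicate 2, KO E17.5 replicate 1 and KO E17.5 replicate 2. Over all probes the share called in these fits was 14.3% and 16% in WT and 13.3%, 14.9% and 19.6% in KO.

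Z00016535-1 had the largest stage change of these, a fall, and Z00075696-1 the largest rise in WT. Z00018218-1 fell by 0.66 in WT and by 0.58 in KO (limma adjusted p = 0.000278 and 0.000687). Z00005950-1, an 8-base site (caaactggaacccCTACCTCatatttcctg), rose by 0.46 in WT and 0.41 in KO (limma adjusted p = 0.00217 and 0.0042), with levels of 0.86 to 1.02 at E16.5 and 1.26 to 1.52 at E17.5. Z00006834-1 and Z00066374-1 rose most clearly in KO, by 0.45 and 0.30 (limma adjusted p = 0.000815 and 0.00292), with 0.17 and 0.02 in WT (limma adjusted p = 0.0493 and 0.841). Z00025542-1, not well above background on any E17.5 array, passed the test as lower at E17.5 in WT (limma adjusted p = 0.0467), and no fold is given for it. Its overlapping partner Z00060425-1 was likewise not well above background on any E17.5 array.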

How the data were processed

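Total RNA of 8 footpad samples (4 groups of 2) was hybridised on 2-colour Agilent arrays. The deposited scanner files hold, per the file headers, the mean and background intensity of each spot and dye, written by Agilent Feature Extraction 9.5.1.1. The authors' deposited series table, used as an alternative, holds log10 values with a median of 2.23 to 2.24 an array. Its deviations from each probe's mean matched those of the processed Cy3 over Cy5 ratio (Pearson r of at least 0.9995), so scale and direction are known and the constant added to each probe is not. Spots with uneven feature or background signal (269 to 364 of 43451 an array) were left out, because on all spots the Cy3 background mean fitted by normexp turned negative on 2 arrays (-320.8 for KO E17.5 replicate 2, -7.0 for WT E16.5 replicate 1); without those spots it lay between 4.81 and 9.14. Intensities were corrected with normexp (offset 50) and loess within each array, with control spots at weight 0, in limma 3.58.1 (R 4.3.3), and spots of a probe were averaged. Differences were tested with lmFit and eBayes, 1 mean for each group, and Benjamini-Hochberg adjustment over all tested probes at 0.05, after a check on simulated data. A fold is on this offset scale, which understates changes of dim probes. The precision is limited by 2 arrays a group, and no depth applies to arrays. GC matching used bins with at least 50 other probes.

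Named probes were, for each knockout comparison, up to 5 called probes with the largest rise and fall whose arrays did not overlap; the 2 with the smallest p in each direction for stage and stage-difference tests; and the 5 longest complements to let-7a, of which 1 is not reported here. The part of the rule that rests on protein matches and the gene and marker lists need gene names and were not used here. The probes and rules were chosen with earlier results of these data known. Alternatives covered background, offset, normalization, filter, replicate block, threshold, site length and leaving out each array. Same-numbered arrays of the genotypes did not deviate together (r = -0.22 at E16.5 and -0.01 at E17.5), so numbers were not taken as pairs.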

Additional observations from a re-analysis of the deposited data

Results flagged for a closer look

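For probe Z00075696-1 the difference between KO and WT changed between the stages, by -0.93 on the log2 scale (limma adjusted p = 0.0138 by the interaction test): both KO arrays lay below both WT arrays at E17.5, and the genotypes overlapped at E16.5. Since each stage had its own slide, the slides and the stages cannot be told apart here.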

How the results depend on the processing

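With spots of uneven signal kept in the background fit, counts of called match probes were 0 at E16.5, 0 at E17.5, 1 over both stages, 0 for the difference between stages, 3 for stage in WT and 1 for stage in KO, and the difference of Z00075696-1 at E17.5 turned to 0.0059. The fitted Cy3 background mean turned negative on 2 arrays under this setting, and its part was not tested. Over all probes 0%, 0.116%, 0.144%, 0%, 1.67% and 0.825% were called in the same order. With Agilent's processed intensities the counts were 2 at E16.5, 17 at E17.5 and 0 for the difference, and with the authors' deposited log10 table, whose differences are nearly the same values, they were also 2, 17 and 0 (0.384%, 9.25% and 0% of all probes with the first, 0.384%, 9.22% and 0% with the second). Median centring gave 2, 5, 8, 3, 12 and 10 in the order above (2.31%, 5.82%, 13.3%, 0.346%, 13% and 12.2% of all probes). Cy3 alone gave 2 for the difference (0.688%). At E16.5 an offset of 10 gave 3 (1.04%), no filter on dim probes 5 (1.24%) and the arrays of 1 stage alone 2 (1.28%). At an adjusted p under 0.10 there were 32 over both stages (24.3%) and 2 for the difference (0.826%). Counting the 8-base form only, 41 of the 115 probes, gave 2, 11 and 8 for the knockout comparisons and 11 and 11 for the stage changes. Over all probes the shares called were 2.95%, 14.8%, 15.7%, 24.7% and 28.1% in the same order. The causes were not tested.

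With the replicate number as a block the counts were 3 at E16.5, 12 at E17.5 and 10 over both stages (1.19%, 8.91% and 8.57% of all probes), and with the numbers crossed at E16.5, added after seeing the data, 5 at E16.5, 12 over both stages and 2 for the difference (2.37%, 11.6% and 0.456%). The numbers carry no stated pairing.

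The median log2 difference less GC-matched others, 0.02 at each stage and over both, became at E16.5 0.0014 on Cy3 alone, 0.0027 with no filter on dim probes and 0.046 for probes well above background on all 8 arrays. At E17.5 it became 0.057 with uneven spots kept, 0.042 with processed intensities and 0.042 in the deposited table. It was -0.0049 there on Cy3 alone, 0.0037 with no filter on dim probes and 0.043 for probes well above background throughout. Over both stages it was -0.0023 on Cy3 alone, -0.00084 with no filter on dim probes and 0.0016 without GC matching. For probes well above background throughout it was 0.042 over both stages. For the difference between stages it was 0.029 with uneven spots kept.

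Leaving out 1 array at a time, the counts ran from 2 to 5 at E16.5, 7 to 25 at E17.5, 11 to 21 over both stages, 0 to 2 for the difference, 14 to 26 for stage in WT and 11 to 24 for stage in KO. The medians ran from -0.0039 to 0.041, 0.017 to 0.026, 0.0074 to 0.032 and -0.017 to 0.023 for the first 4 of these. In the same fits the share of all probes called moved as well, in every comparison. The ranges of counts are therefore not particular to the match probes. Whether their counts moved beyond that share was not tested. Over the named probes, 618 recomputed values kept their direction and side of the threshold, 137 kept direction and lost the call, 6 gained it and 1 turned. In a fit on only the probes well above background on all 8 arrays, 7 match probes were higher and 1 lower at E16.5. There were 20 and 4 at E17.5, and 20 and 2 over both stages. Of all probes in that fit 3.99%, 18.3% and 19.1% were called, in the same order. Signal over background limits the dim probes: 12 of the 115 were well above background on neither array of some group, and 94 were so on all 8 arrays.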
